A study of Bos taurus with 9 samples.

Results

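The small leucine-rich proteoglycans are secreted matrix proteins with a horseshoe of leucine-rich repeats, and many carry chondroitin, dermatan or keratan sulfate chains. They bind collagen fibrils and regulate how the fibrils assemble, and several hold growth factors such as TGF-beta in the matrix. In cartilage and tendon they are among the main non-collagenous components. Here 10 genes of the family were followed: the class I genes BGN, DCN and ASPN, the class II genes FMOD, LUM, PRELP and OMD, and the class III genes OGN, EPYC and OPTC. They were chosen by gene symbol, as every probe set whose only platform symbol was that of a member. This gave 12 of 24016 probe sets, for 10 of 9155 named genes, with 2 probe sets each for BGN and PRELP and 1 for each other gene.

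The RNA came from 9 single-colour bovine expression arrays in 3 groups of 3, with 1 array per group from each of 3 calves aged 3 to 6 months. MSC_day0 were marrow-derived mesenchymal stem cells (MSCs, stromal cells that can form cartilage, bone and fat), labelled undifferentiated and collected straight after embedding in agarose, a hydrogel. MSC_day28 were such cells after 28 days in agarose in defined medium with TGF-beta3 at 10 ng/mL, a growth factor used to induce cartilage formation. Articular chondrocytes, the cells of joint cartilage, were embedded in agarose right after isolation according to the labels of 2 of their arrays, and held under the same conditions for 28 days (chondrocytes_day28). All groups share the agarose, and the series has neither freshly embedded chondrocytes nor a culture without TGF-beta3, so time in culture and the growth factor cannot be told apart. The series set out to compare undifferentiated MSCs, MSCs made chondrogenic and chondrocytes.

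Values are log2 RMA values, differences are on the log2 scale with the standard error of limma's model, and a gene was called at a Benjamini-Hochberg adjusted p under 0.05. Each comparison had n = 3 arrays per group, which limits the precision. The level of 1 probe set cannot be set against that of another. Where a difference between a pair of probe sets is given, only its change between groups can be read, not its size in a group. In cultures, a change in the share of cells that express a gene and a change in RNA per cell cannot be told apart.

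The labelled cell states were checked against marker genes. All 7 cartilage markers with a named probe set (COL2A1, ACAN, COMP, HAPLN1, COL9A1, COL11A2 and CHAD) were called higher in both day 28 groups than in day 0 MSCs, and limma called 0 of 7 between the day 28 groups, with 0 at an unadjusted p under 0.05. Their summed level was 8.82 to 9.61 in day 0 MSCs, 15.11 to 15.26 in day 28 MSCs and 15.12 to 15.24 in chondrocytes. Of 8 stromal markers, 3 were called lower in day 28 MSCs than at day 0 (NT5E, CD44 and CXCL12). A further NT5E set was not called there (-0.59), nor between the day 28 groups (0.37). Of 6 tendon and fibrous tissue markers, THBS4 and POSTN were called higher and TNC and COL1A1 lower in day 28 than in day 0 MSCs, while the tendon marker TNMD, with group means from 2.10 to 2.43, was not called. Further sets of TNC (-0.35) and COL1A1 (-0.37) were not called. Osteoblast markers counted 2 higher of 5 at day 28, adipocyte markers 1 higher and 1 lower of 5, blood markers 1 higher and 3 lower of 10, and endothelial markers 2 higher of 6. The bone marker IBSP, at means of 12.80 and 12.89, is not among these calls, but a further IBSP set was called higher (4.19 ± 1.36, adjusted p = 0.0442). ALPL had means of 2.96 and 8.91, and a further ALPL set was not called (0.73). Over all genes, 13.5% were called higher and 21.0% lower between the MSC groups, and the counts of the lists were not tested against these shares. Between the day 28 groups 8.35% of all genes were called higher and 4.81% lower. Between chondrocytes and day 28 MSCs, where OGN and OPTC were called, THBS4 (11.06 against 6.04) and POSTN (7.77 against 5.16) of the tendon list, NT5E of the stromal list and CSF1R of the blood list were called higher in chondrocytes, ALCAM of the stromal list lower, and limma called 0 osteoblast, adipocyte or endothelial markers (PPARG alone had an unadjusted p under 0.05). The summed level of the blood list was 6.39 to 7.95 in day 0 MSCs, 7.10 to 7.29 in day 28 MSCs and 8.39 to 8.89 in chondrocytes, with PTPRC, the defining surface protein of white blood cells, at means of 2.15 to 2.49. The myeloid genes of that list went different ways: CSF1R had means of 4.39, 6.01 and 7.61 and CD14 of 4.62, 4.83 and 7.29, whereas TYROBP (4.85, 2.43 and 2.88), AIF1 (4.22, 2.14 and 2.11) and CD68 (5.42, 3.94 and 4.23) were called lower at day 28. The summed level of the endothelial list was 7.24 to 7.87, 8.43 to 8.61 and 8.79 to 9.04 in the same order, with both higher calls from TEK (means of 4.15, 6.36 and 6.34) and ERG (7.32, 8.04 and 8.56), while PECAM1, CDH5, KDR and VWF lay at means of 1.87 to 2.66. A further ERG set, near the low end of the scale, was not called (-0.07 between the MSC groups). The part of other cells in the results below was not tested.

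Some technical measures moved with arrays or groups. The spiked hybridisation controls averaged 9.68 on 2 arrays, MSC_day28 replicate 3 and chondrocytes_day28 replicate 3, and 11.64 on the other 7. The labels of these 2 arrays word the RNA extraction alike and slightly differently from the others, with the same steps. Bovine control transcripts had a 3′ minus 5′ difference of 0.23 ± 0.06 (SD, n = 3 arrays) at day 0, 0.67 ± 0.16 for day 28 MSCs and 0.42 ± 0.07 for chondrocytes, averaged over 3 transcripts. Their part in the results was not tested.

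Across the family, most members were higher in day 28 than in day 0 MSCs, and a pair of them was far lower. Of 10 genes, 6 were called higher at day 28 than at day 0 (BGN, FMOD, LUM, PRELP, OPTC and EPYC), 2 were called lower (OGN and ASPN), and DCN and OMD were not called. Over all 9155 genes, 13.5% were called higher and 21.0% lower. The members' median difference was 0.43 and their median absolute difference 1.11, against -0.11 and 0.40 over all genes. The count fell from 8 to 5 without MSC_day28 replicate 2, without MSC_day28 replicate 3, or without both arrays with low hybridisation controls, and the calls lost in each case were those of FMOD, LUM and EPYC.

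Between chondrocytes and day 28 MSCs, 2 of 10 members were called, OGN and OPTC. Both were higher in chondrocytes and none was called lower, against 8.35% of all genes called higher and 4.81% lower. The median difference of the members was 0.31, against -0.02 over all genes (limma found 4 members at an unadjusted p under 0.05, those of OGN, OPTC, OMD and ASPN, all higher in chondrocytes). Against day 0 MSCs, chondrocytes had 6 members called higher, the same 6 that rose in MSCs, and ASPN called lower, while 15.1% and 20.9% of all genes were called higher and lower. These comparisons share arrays, so that the counts are not independent of each other.

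**Figure D1:**
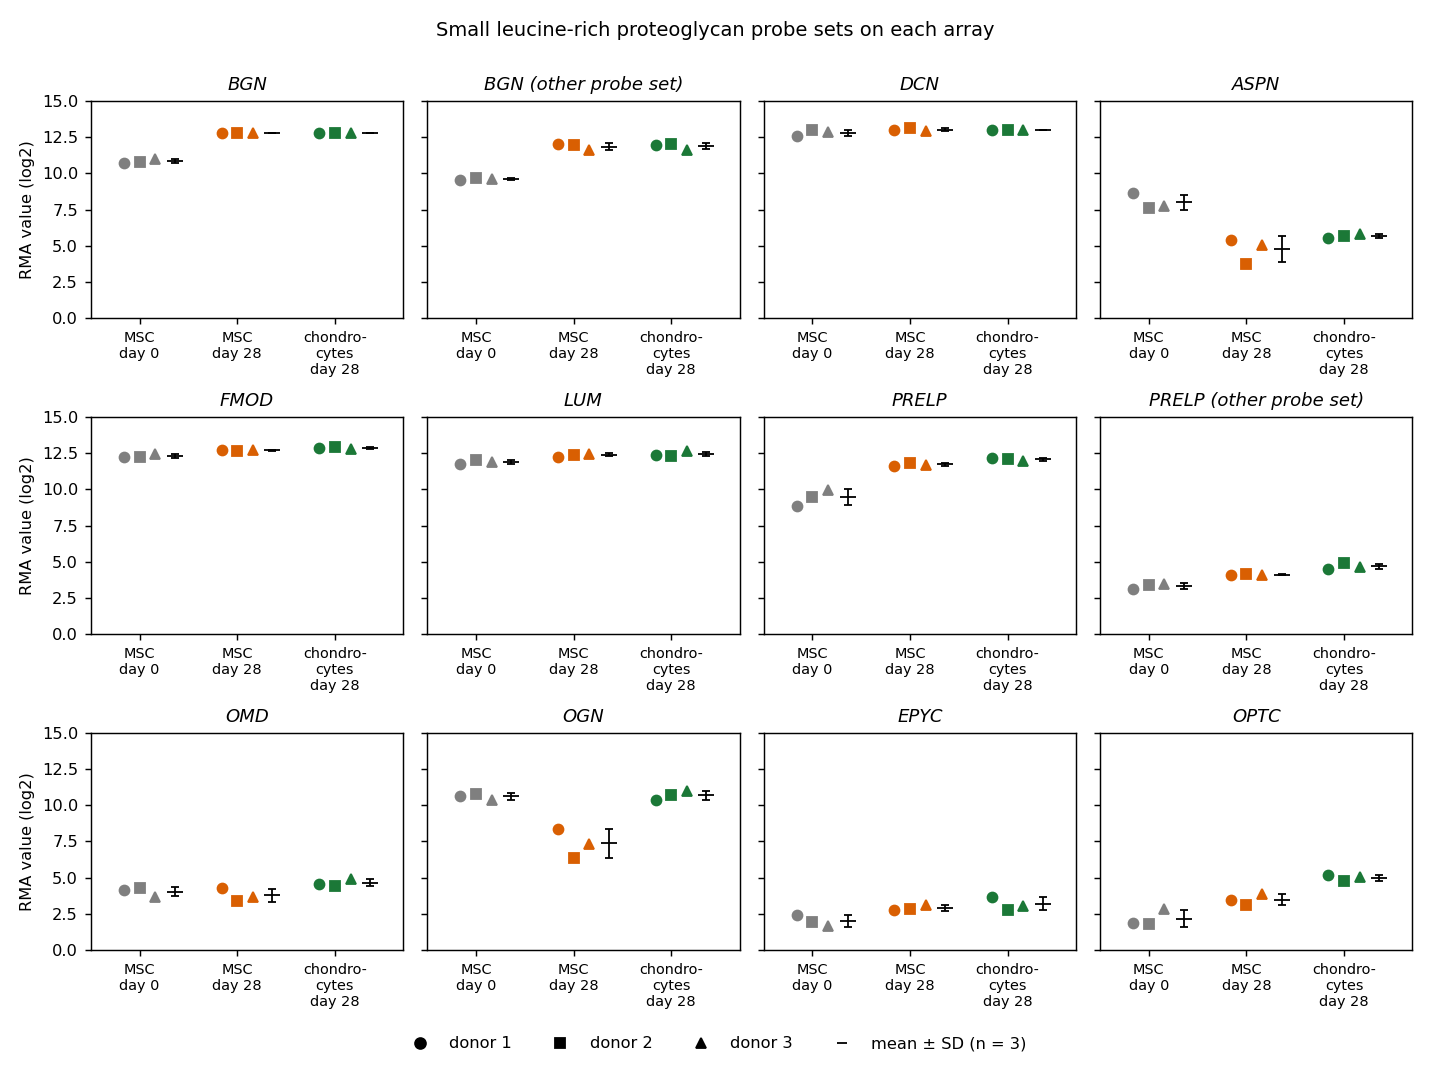
Log2 RMA value (vertical axis) of each of the 12 probe sets on the 9 arrays, by group (horizontal axis), with 1 symbol per donor and the mean ± SD of 3 arrays beside the points. OGN sits between 6.37 and 8.38 in day 28 MSCs and above 10 in both other groups, ASPN is lower in both day 28 groups, and BGN lies between 12.76 and 12.81 on all 6 day 28 arrays.

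Among the class I genes, BGN encodes biglycan, a collagen-binding proteoglycan of cartilage and bone that carries a pair of chondroitin or dermatan sulfate chains. By its probe set of highest mean, BGN was at 10.72, 10.82 and 10.98 in day 0 MSCs (donors 1 to 3). It was at 12.81, 12.76 and 12.81 in day 28 MSCs and at 12.81, 12.80 and 12.81 in chondrocytes. Day 0 values lay below every day 28 value, and the day 28 groups overlapped. The rise in MSCs was 1.95 ± 0.12, or 3.88-fold (adjusted p = 1.01e-05), and the second probe set rose by 2.26 ± 0.16 (adjusted p = 2.28e-05). Chondrocytes minus day 28 MSCs was 0.01 (95% confidence interval -0.26 to 0.28), and 0.02 (-0.35 to 0.38) by the second set. The 6 day 28 values of the first set lay in a very narrow band, and the probe set lay between percentiles 96.2 and 99.8 of the arrays. Saturation was not tested. The second set was spread more widely, at 11.61 and 11.64 on the 2 arrays with low hybridisation controls and at 11.94 to 12.06 on the other day 28 arrays.

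DCN encodes decorin, the closest relative of biglycan, which usually carries a single chain and limits the lateral growth of fibrils. DCN was at 12.56, 12.98 and 12.85 in day 0 MSCs, at 12.98, 13.14 and 12.93 in day 28 MSCs, and at 12.99, 13.03 and 12.98 in chondrocytes. The groups of MSCs overlapped. Its differences were 0.22 (-0.10 to 0.54) between the MSC groups, -0.02 (-0.34 to 0.30) between chondrocytes and day 28 MSCs, and 0.20 (-0.12 to 0.52) between chondrocytes and day 0 MSCs, with adjusted p = 0.282, 0.961 and 0.322. DCN lay between percentiles 99.6 and 99.9 of the arrays, so that a change could have been compressed there, which was not tested.

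Within arrays the difference between BGN and DCN was not constant. On the same array, BGN minus DCN was -1.96 ± 0.18 at day 0 (SD, n = 3), -0.23 ± 0.14 after 28 days of MSC culture, and -0.19 ± 0.03 for chondrocytes. Between the MSC groups this is a change of 1.73 (2-sided exact permutation test, p = 0.1, or 0.15 adjusted over 6 tests of this kind), and a design of 3 against 3 cannot reach a p below 0.1. The pair was chosen after its values had been seen, the test does not use the donors, and both probe sets lie at the high end of the scale, so that the values are a description.

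ASPN encodes asporin, which has a run of aspartates in place of the attachment site for a chain and is known to bind TGF-beta. It was at 8.62, 7.64 and 7.78 in day 0 MSCs, at 5.44, 3.74 and 5.10 in day 28 MSCs, and at 5.57, 5.69 and 5.85 in chondrocytes. Both day 28 groups lay below every day 0 array. The fall in MSCs was 3.26 on the log2 scale (SE 0.41, 9.56-fold, adjusted p = 0.000428, lower in 3 of 3 donors), and chondrocytes minus day 0 MSCs was -2.31 ± 0.41 (4.97-fold lower, adjusted p = 0.0028). Chondrocytes were above day 28 MSCs by 0.95 (0.01 to 1.88), with donor differences of 0.13, 1.95 and 0.76, and this was not called (adjusted p = 0.201). Without MSC_day28 replicate 2, the lowest array, that difference was 0.44.

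The class II genes FMOD and LUM encode fibromodulin and lumican, which share a binding site on collagen and often carry keratan sulfate. FMOD was at 12.26, 12.22 and 12.45 in day 0 MSCs, at 12.74, 12.67 and 12.68 in day 28 MSCs, and at 12.84, 12.89 and 12.76 in chondrocytes. LUM was at 11.73, 12.04 and 11.92, then at 12.26, 12.39 and 12.47, and in chondrocytes at 12.37, 12.32 and 12.62. Every day 28 array lay above every day 0 array for both genes, by small steps.

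The rises in MSCs were 0.39 ± 0.12 for FMOD (1.31-fold, adjusted p = 0.0398) and 0.48 ± 0.14 for LUM (1.39-fold, adjusted p = 0.0329). Both calls depended on the setting. FMOD kept its call in only 1 of 9 fits that left out an array (adjusted p from 0.0364 to 0.112), and lost it with the donor as a block (0.0623), with arrays centred on their median (0.0872), with 2 groups alone (0.0772) and without both low-control arrays (0.0935). LUM lost its call without MSC_day0 replicate 1 (0.114) or 3 (0.0697), without MSC_day28 replicate 2 (0.0763) or 3 (0.0922), with 2 groups alone (0.0525), and with both low-control arrays left out (0.0844) or as a batch block (0.0586). In chondrocytes against day 0 MSCs the differences were 0.52 ± 0.12 for FMOD (adjusted p = 0.0111) and 0.54 ± 0.14 for LUM (0.0192). The call of FMOD held in all 22 alternatives, and that of LUM was lost in 3, at 0.0724 without MSC_day0 replicate 1, at 0.0681 without chondrocytes_day28 replicate 3 and at 0.0721 without both low-control arrays. Neither gene was called between the day 28 groups (0.13, interval -0.14 to 0.41, and 0.06, interval -0.26 to 0.39).

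PRELP encodes prolargin, which has a basic stretch at its start that binds heparin and heparan sulfate, and links matrix to cell surface and basement membrane. It was at 8.87, 9.49 and 9.98 in day 0 MSCs, at 11.64, 11.84 and 11.66 in day 28 MSCs and at 12.15, 12.08 and 11.95 in chondrocytes. The 3 groups did not overlap. The rise in MSCs was 2.27 ± 0.24 (4.82-fold, adjusted p = 0.000175), with donor differences of 2.77, 2.35 and 1.68. By sets of highest mean this was the largest rise of a member there, though the second BGN set rose by 2.26 ± 0.16. Chondrocytes exceeded day 0 MSCs by 2.61 ± 0.24 (6.12-fold, adjusted p = 8.12e-05), and day 28 MSCs by 0.35 (-0.21 to 0.90), which was not called (adjusted p = 0.456).

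The second PRELP probe set gave much lower signal, at 3.11 to 3.46, 4.10 to 4.15 and 4.51 to 4.88 in the 3 groups. It rose by 0.79 ± 0.15 in MSCs (adjusted p = 0.00382), with the same direction and a smaller size. Unlike the first set it was called higher in chondrocytes than in day 28 MSCs, by 0.57 ± 0.15 (adjusted p = 0.0434). In 3 of 3 donors both sets were higher in chondrocytes than in day 28 MSCs.

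OMD encodes osteomodulin (osteoadherin), an acidic member best known from bone. It was at 4.14, 4.26 and 3.66 in day 0 MSCs, at 4.25, 3.38 and 3.66 in day 28 MSCs and at 4.58, 4.41 and 4.89 in chondrocytes. The MSC groups overlapped, and every chondrocyte array was above every MSC array. The difference between the MSC groups was -0.25 (-0.82 to 0.31). Chondrocytes minus day 28 MSCs was 0.86 ± 0.25 (adjusted p = 0.0621) and was not called, whereas it passed with arrays centred on ribosomal protein genes (0.98, adjusted p = 0.0363), with cyclic loess (0.90, 0.0443) and without MSC_day28 replicate 1 (1.11, 0.0244).

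OGN, of class III, encodes osteoglycin or mimecan, which is made by many connective tissues and affects fibril diameter. It was at 10.66, 10.79 and 10.34 in day 0 MSCs, at 8.38, 6.37 and 7.33 in day 28 MSCs, and at 10.34, 10.72 and 10.95 in chondrocytes. Day 28 MSCs lay below all arrays of both other groups, which overlapped. The fall in MSCs was 3.24 on the log2 scale (SE 0.43, 9.44-fold, adjusted p = 0.000507, lower in 3 of 3 donors), and chondrocytes exceeded day 28 MSCs by 3.31 ± 0.43 (9.91-fold, adjusted p = 0.00153, higher in 3 of 3 donors). Both calls held in all 22 alternatives, with values from -3.75 to -2.74 and from 2.81 to 3.82. Chondrocytes minus day 0 MSCs was 0.07 (-0.89 to 1.03), an interval wide enough to hold a change of about 1 in either direction. The model fits 1 spread over all 3 groups, and for OGN the spread was widest in day 28 MSCs, a group outside this comparison.

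The fall of OGN varied between calves: the differences between the MSC groups were -2.28, -4.42 and -3.01 in donors 1 to 3. Day 28 MSCs had an SD of 1.01 for OGN, against 0.23 in day 0 MSCs and 0.31 in chondrocytes. ASPN had its largest SD in the same group, 0.90, against 0.53 and 0.14. For OGN, ASPN and OMD alike the lowest day 28 MSC array was that of donor 2 and the highest that of donor 1.

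OGN and ASPN fell by similar amounts in MSCs, and the difference between their probe sets was larger in chondrocytes than in the MSC groups. On the same array, OGN minus ASPN was 2.58 ± 0.55 at day 0 (SD, n = 3), 2.60 ± 0.35 after 28 days of MSC culture, and 4.96 ± 0.17 for chondrocytes. The chondrocyte arrays, from 4.77 to 5.09, were above the day 28 MSC arrays, from 2.23 to 2.94. The change of 2.36 between them gave p = 0.1 in the 2-sided exact permutation test, and 0.15 adjusted over the 6 tests. The change between the MSC groups was 0.02 (exact p = 1). This pair, too, was chosen after its values had been seen and tested without the donors, and its values are a description.

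OPTC encodes opticin, which was first described in the vitreous of the eye and is also found in cartilage. It was at 1.84, 1.79 and 2.84 in day 0 MSCs, at 3.47, 3.09 and 3.84 in day 28 MSCs, and at 5.19, 4.75 and 5.01 in chondrocytes. The 3 groups did not overlap and the order was the same in every donor. The rise in MSCs was 1.31 ± 0.30 (2.48-fold, adjusted p = 0.00938), chondrocytes exceeded day 28 MSCs by 1.51 ± 0.30 (2.86-fold, adjusted p = 0.013), and they exceeded day 0 MSCs by 2.82 ± 0.30 (7.08-fold, adjusted p = 0.00016). The call between the day 28 groups was lost without chondrocytes_day28 replicate 1 (1.41 ± 0.35, adjusted p = 0.0506). The day 0 values lay near the low end of the scale (percentile 7.95 at the lowest), where signal above background cannot be told from these files, so that the folds against day 0 may be compressed.

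EPYC encodes epiphycan, a proteoglycan of growth plate cartilage. It was at 2.44, 1.93 and 1.63 in day 0 MSCs, at 2.76, 2.83 and 3.12 in day 28 MSCs, and at 3.68, 2.79 and 3.07 in chondrocytes. Day 0 values lay below all day 28 values, and the day 28 groups overlapped. The rise in MSCs was 0.90 ± 0.27 (adjusted p = 0.0301), and it lost its call in 7 of the 21 alternatives that held the gene. The lost calls include those without MSC_day0 replicate 2 (adjusted p = 0.0818) or 3 (0.101), without MSC_day28 replicate 2 (0.0595) or 3 (0.088), and without both low-control arrays (0.113). Chondrocytes exceeded day 0 MSCs by 1.18 ± 0.27 (adjusted p = 0.00893), and chondrocytes minus day 28 MSCs was 0.28 (-0.32 to 0.88) and not called. That value rests on donor 1, with donor differences of 0.92, -0.03 and -0.05, and was 0.03 without chondrocytes_day28 replicate 1. EPYC did not exceed percentile 38.5 of an array, so that these are changes near the low end of the scale.

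**Figure D2:**
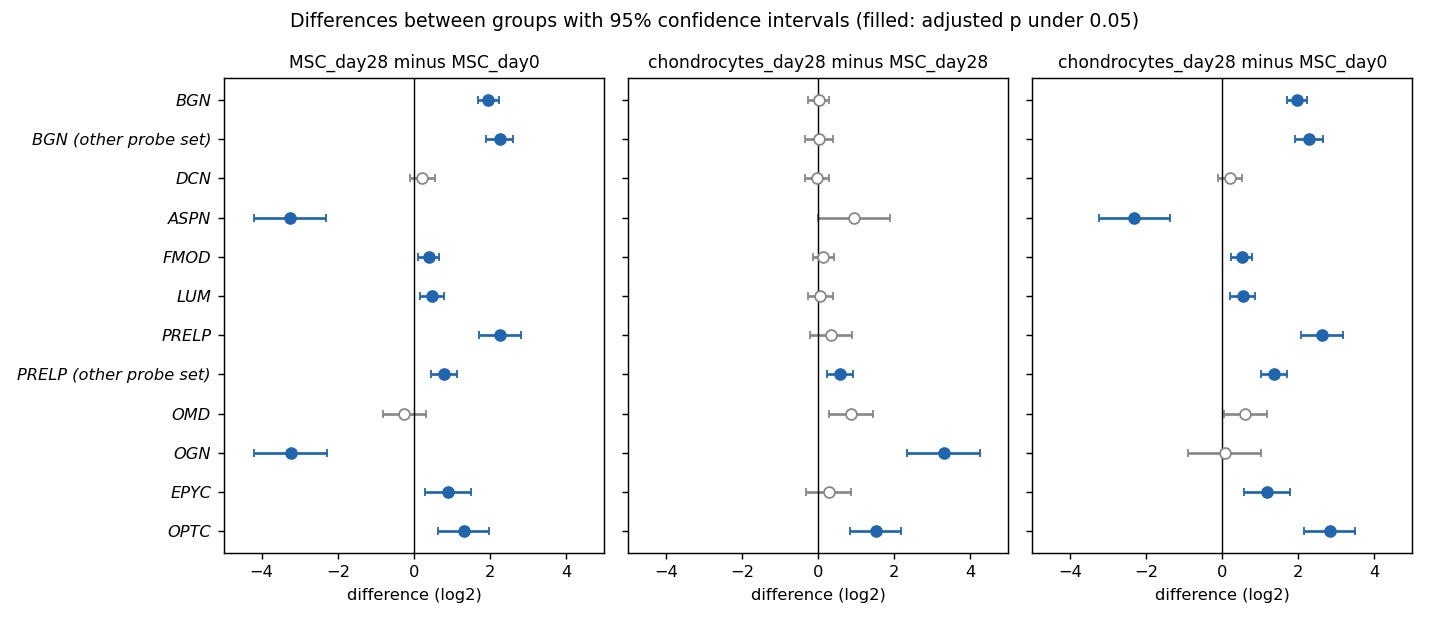
Difference between groups on the log2 scale (horizontal axis) with its 95% confidence interval for each of the 12 probe sets (rows) in the 3 comparisons (panels); filled points passed an adjusted p of 0.05. The intervals of OGN and ASPN lie below 0 in MSC_day28 minus MSC_day0, whereas in chondrocytes_day28 minus MSC_day28 the interval of OGN lies from 2.35 to 4.27.

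Family members sit side by side in the bovine genome, and not every cluster had the same call for all its members between the MSC groups. In the order of protein-coding genes of the RefSeq assembly ARS-UCD2.0, FMOD, PRELP and OPTC follow each other directly, OGN, OMD and ASPN do so too, EPYC, LUM and DCN are parted only by KERA, and BGN stands alone. In the first cluster all 3 members were called higher in day 28 than in day 0 MSCs, from 0.39 for FMOD to 2.27 for PRELP. In the OGN cluster the outer genes fell by 3.24 and 3.26 while OMD between them was at -0.25. With a day 0 mean of 4.02, against 10.60 for OGN and 8.02 for ASPN, OMD had little room for a fall of that size. Whether it was spared cannot be told. In the cluster of DCN, EPYC and LUM were called higher at day 28 and DCN was not called. The interval of DCN (-0.10 to 0.54) holds the 0.48 of LUM, so that these 2 are not shown to differ.

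Among the 2 genes on each side of a member, 6 outside the family had a named probe set. KERA, the cornea proteoglycan keratocan and itself a relative of LUM, was at means of 1.62, 1.51 and 1.65 in the 3 groups, near the low end of the scale, and was not called in any comparison. CENPP, a centromere protein gene whose span overlaps those of OGN and OMD, fell by 1.42 ± 0.35 in MSCs (adjusted p = 0.0131) and was higher in chondrocytes than in day 28 MSCs by 2.29 ± 0.35 (adjusted p = 0.0036). Its day 28 MSC arrays were at 4.11, 4.77 and 5.57 for donors 1 to 3, so that the order of donors was not that of OGN. NOL8, next to CENPP, was not called in any comparison (0.02 ± 0.16 between the MSC groups). BTG1, next to DCN, was called higher in day 28 MSCs (0.84 ± 0.12). ATP2B4, next to OPTC, was called lower there (-0.67 ± 0.23, adjusted p = 0.0494), at means of 2.64 and 1.96, near the low end of the scale. ATP2B1, near EPYC, was called only between chondrocytes and the MSC groups (1.33 ± 0.15 against day 28 MSCs, with 2 further probe sets at -0.19, not called, and 1.04, called).

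**Figure D3:**
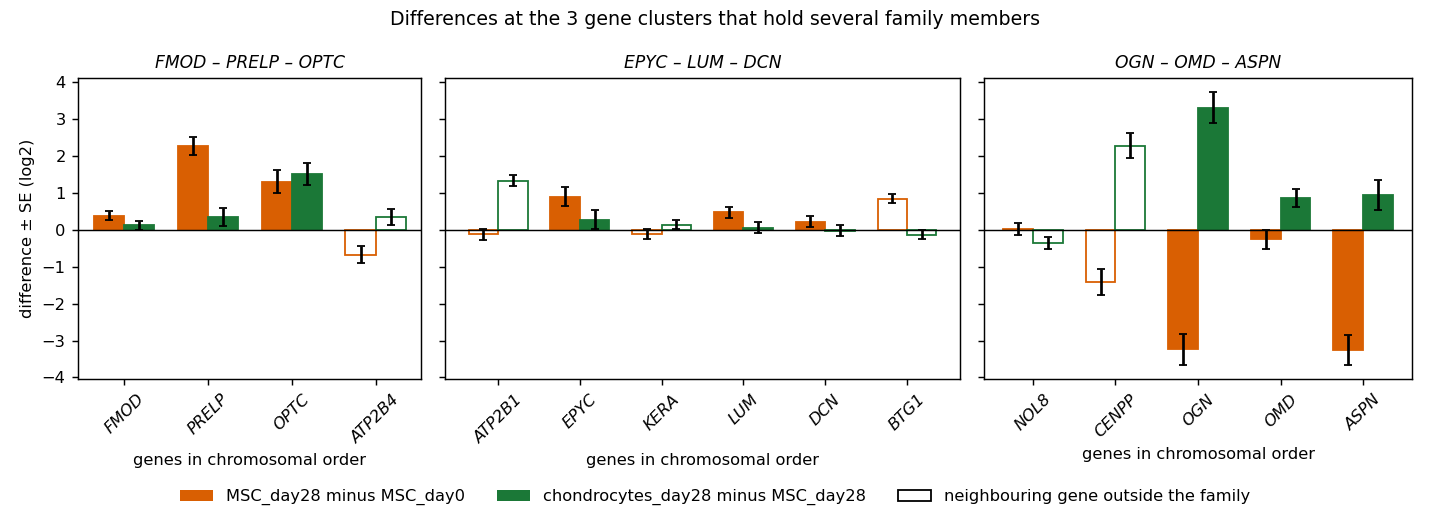
Difference ± SE on the log2 scale (vertical axis) for genes in chromosomal order (horizontal axis, not to scale) at the 3 clusters, with family members filled and neighbours outside the family open; neighbours with no named probe set are left out. OGN and ASPN show bars of -3.24 and -3.26 in MSC_day28 minus MSC_day0 with OMD at -0.25 between them. OMD, with a day 0 mean of 4.02, had little room to fall. CENPP shows -1.42 and 2.29 in the 2 comparisons.

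For each member called at least once, the 3 genes with the most similar centred profile over the 9 arrays were found among 9018 other named genes, by root mean square distance on the log2 scale. Arrays of a group share their condition, so that this is mostly likeness of 3 group means. BGN was closest to HSPA2 (0.12), TMEM45A (0.12) and COL12A1 (0.12), the last a collagen of fibril surfaces that rose by 1.98 in MSCs. PRELP was closest to S100B, a calcium-binding protein of cartilage and glia (0.21), then STEAP3 (0.24) and MAP2 (0.25, with a further MAP2 probe set that rose by only 0.46 and was not called). OPTC was closest to TMEM204 (0.22), NAPRT (0.30) and C1QTNF1 (0.31, with a further set at 0.53 between the MSC groups, not called). EPYC was closest to PLOD2, a collagen lysyl hydroxylase (0.21), B4GALNT1 (0.21) and RASD1 (0.23). B4GALNT1 was near the low end of the scale, with group means of 2.10, 2.83 and 3.03. Genes within 0.5 numbered 279 for BGN, 85 for PRELP, 31 for OPTC and 999 for EPYC, so that nearness to BGN or EPYC is not particular to the genes named.

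OGN had no gene within 0.5. Its nearest were DTYMK, a thymidylate kinase (0.54), MMP19, a metalloproteinase (0.58, with a second probe set that was not called in any comparison), and ACAT2, an enzyme of acetoacetyl-CoA synthesis (0.61). ASPN was nearest to RABGAP1L (0.40), TRIB1 (0.40) and SH3BGR (0.43), with 9 genes within 0.5. FMOD and LUM changed so little that 5378 and 5040 genes lay within 0.5, so that being near them sets few genes apart. Nearest to FMOD were CTBP2, COPA and GORASP2, and nearest to LUM were JMJD1C, AP1G1 and RNF4; further sets of COPA (-0.27) and AP1G1 (-0.07) were not called between the MSC groups. Between members the closest pairs were FMOD with LUM (0.16), DCN with FMOD (0.18) and DCN with LUM (0.18), the next being BGN with PRELP (0.34).

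The collagens to which the family binds were described from lists. Of 9 fibril collagens with a named probe set, 4 were called higher and 2 lower in day 28 than in day 0 MSCs (median 0.15), and 0 of 9 were called between the day 28 groups by limma (median 0.13), with only COL1A1 at an unadjusted p under 0.05. Over all genes, 13.5% were called higher and 21.0% lower between the MSC groups, and 8.35% and 4.81% between the day 28 groups. The cartilage collagens COL2A1 (5.96 ± 0.33), COL11A2 (6.70 ± 0.19) and COL11A1 (1.24 ± 0.15) rose together with COL27A1 (2.34 ± 0.38). COL5A3 was called lower in both day 28 groups, with means of 5.23 at day 0, 2.05 in MSCs at day 28 and 2.35 for chondrocytes, both of the latter near the low end of the scale, where the size of a fall is limited. COL3A1 was not called (0.15 ± 0.13). COL1A1, the main fibrous collagen, was at -0.56 ± 0.18, and its second probe set, at -0.37 ± 0.16, was not called.

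Of 4 collagens that associate with fibrils or form beaded filaments, COL9A1 (5.41 ± 0.22) and COL12A1 (1.98 ± 0.13) were called higher in day 28 MSCs and COL6A2 lower (median 0.96, against 0.41 between the day 28 groups). Of all genes, 13.5% were called higher there and 21.0% lower. COL6A2, a chain of collagen VI, to which biglycan and decorin bind, fell by 1.52 in MSCs and was higher in chondrocytes than in day 28 MSCs by 1.28 ± 0.22 (adjusted p = 0.00676), and its second set was called likewise in both. COL6A1 was called higher in chondrocytes than in day 28 MSCs (0.77 ± 0.16), though 2 further sets, at 0.88 and 0.84, were not called.

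Of 21 enzymes that build or modify the chains of these proteoglycans, 5 were called higher and 4 lower in day 28 than in day 0 MSCs (median -0.13). That is 42.9% of the list, where 13.5% of all genes were called higher and 21.0% lower. In chondrocytes against day 28 MSCs, 6 were called higher and 1 lower (median 0.31), where 8.35% and 4.81% of all genes were called. DSE and DSEL, the epimerases that turn chondroitin into dermatan sulfate, were both called lower in day 28 MSCs, by -0.76 ± 0.15 and -2.52 ± 0.28. B3GNT2 (-1.25 ± 0.16), which extends poly-lactosamine chains, and B4GALT1 (-0.98 ± 0.24), a galactosyltransferase, were the other 2 that fell. CHST2, a sulfotransferase, rose by 1.80 ± 0.52. In chondrocytes against day 28 MSCs, UGDH, which makes the UDP-glucuronate used for these chains, was higher by 1.66 ± 0.19 (adjusted p = 0.000908) and UST, a uronyl sulfotransferase, by 1.36 ± 0.19. CHST7 was higher by 1.06 ± 0.22, with 1 of 3 further sets called the same way. PAPSS1, which makes the sulfate donor, was called higher in both comparisons and stood 1.59 ± 0.19 above day 0 MSCs in chondrocytes.

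Of 14 growth factors and receptors that members can bind, 1 was called higher and 4 lower in day 28 than in day 0 MSCs (median -0.04, and 0.01 between the day 28 groups). The share called is close to that of all genes, of which 13.5% were called higher and 21.0% lower. The growth factor BMP4 fell by 1.84 (SE 0.17), the toll-like receptor TLR2, to which biglycan binds, by 1.71 (SE 0.45), the receptor MET, to which decorin binds, by 1.10 (SE 0.27) and TGFB3 by 0.90 (SE 0.29). Between chondrocytes and day 28 MSCs, TLR2 (2.68 ± 0.45) and TGFB3 (1.39 ± 0.29) were called higher. CD14, a co-receptor of TLR2, was at 2.45 ± 0.69 and not called (adjusted p = 0.0551), and its second set was called (1.47 ± 0.37). TLR2 and CD14 are also expressed by blood cells, whose markers are given above.

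Of 10 proteases and enhancers of proteases that process or cleave members, 4 were called lower and 0 higher in day 28 than in day 0 MSCs by limma (0 were higher at an unadjusted p under 0.05), against 21.0% and 13.5% of all genes. Those lower were ADAMTS5 (-2.25 ± 0.36), MMP14 (-2.08 ± 0.40), HTRA1 (-0.80 ± 0.15) and MMP3 (-1.76 ± 0.47). Both further MMP3 sets were not called. PCOLCE2 (0.65) and PCOLCE (0.34) were higher in 3 of 3 donors and not called. The median of the list was -0.42 there and -0.04 between the day 28 groups. HTRA1, a serine protease, was higher in chondrocytes than in day 28 MSCs by 1.05 ± 0.15 (adjusted p = 0.00228), as were MMP3 and ADAMTS4, while PCOLCE2, an enhancer of procollagen cleavage, was lower by -2.15 ± 0.45. In this comparison both further MMP3 sets (0.51 and 0.37) were not called. PCOLCE, at -0.42, was not called, whereas its further set was called lower (-0.93 ± 0.22, adjusted p = 0.0268). MMP13 was lower in chondrocytes than in day 0 MSCs (-2.64 ± 0.76), and its second set was not called, with donor differences of -1.29, -4.80 and -0.82. Between the MSC groups the first set, not called there, also fell most in donor 2 (-0.39, -4.75 and -0.38).

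Of 4 further extracellular leucine-rich repeat genes, CHAD, encoding the cartilage protein chondroadherin (8.04 ± 0.23), and TSKU (1.75 ± 0.21) rose in MSCs (median of the list 1.08), where 13.5% of all genes were called higher. LRRC17 was at 0.40 ± 0.78 there and was higher in chondrocytes than in day 28 MSCs by 4.92 ± 0.78 (adjusted p = 0.0043), and KERA was not called.

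**Figure D4:**
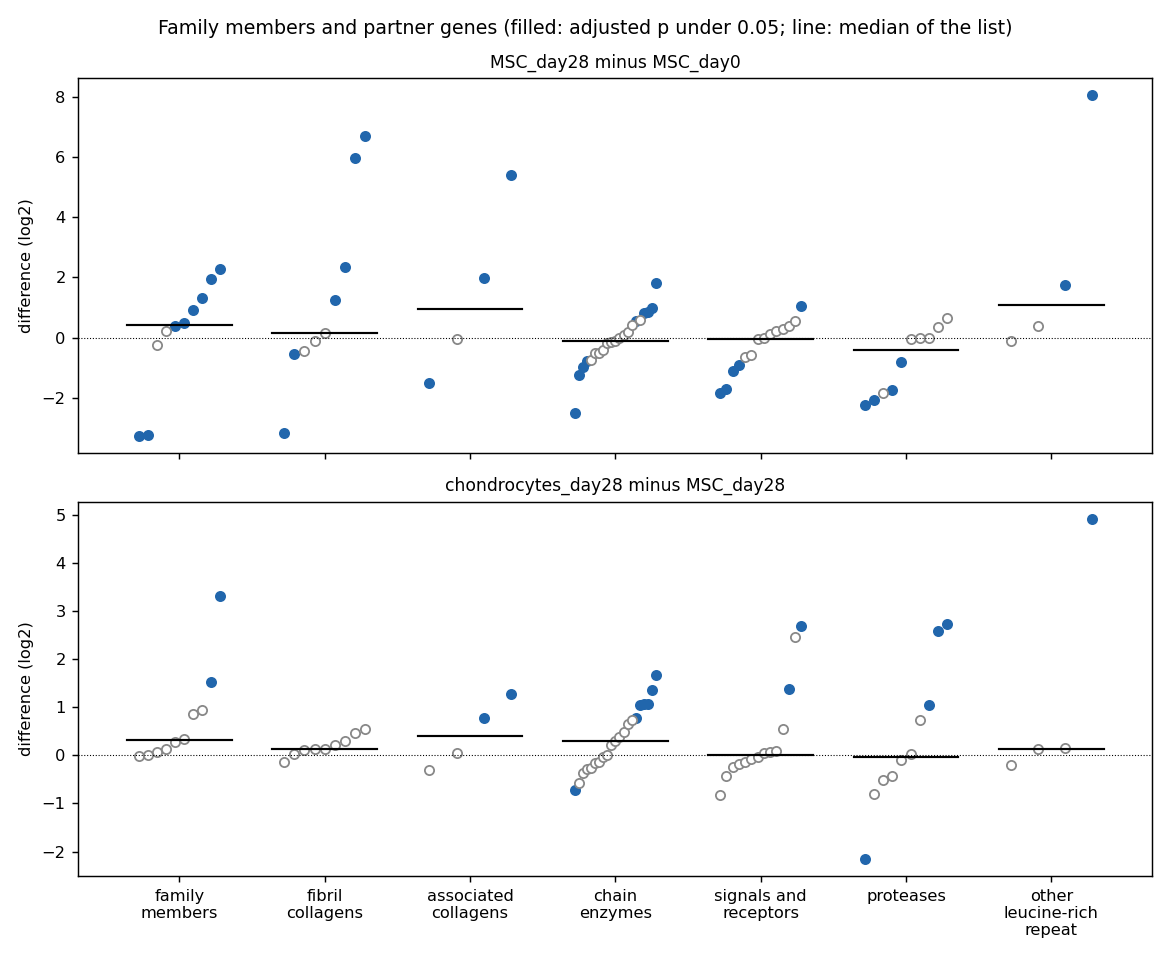
Difference on the log2 scale (vertical axis) of each gene, by its probe set of highest mean, for the family and 6 lists of partner genes (horizontal axis) in 2 comparisons; filled points passed an adjusted p of 0.05 and the line is the median of a list. The members span -3.26 to 2.27 in MSC_day28 minus MSC_day0, and in chondrocytes_day28 minus MSC_day28 only OGN and OPTC of the members are filled.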

How the data were processed

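Each of 9 arrays measured 1 RNA sample, extracted with trizol and chloroform, primed at the poly(A) tail, amplified and biotin-labelled, per the labels' protocols. The deposited values are log2 values made by the authors with RMA, per the submitters' processing notes (version not given in the sources used here). RMA forces arrays to a common distribution, which hides shifts of total RNA per cell. Of 24128 probe sets, 112 controls were left out. Gene names are those of the array's annotation, checked by gene identifier against RefSeq (13263 of 13292 probe sets with 1 symbol matched). No sequence tables were used.

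A gene was represented by its probe set of highest mean. limma 3.58.1 (R 4.3.3) was fitted over all probe sets and 3 groups, with Benjamini-Hochberg adjustment over 24016 and the method checked on simulated data. Within-array differences used exact permutation (scipy 1.17.1). The members and lists were chosen with earlier results of these data known. Named genes were all members, the 3 most similar genes of each called member, the 3 smallest p per list and comparison, and 2 neighbours on each side; further list genes were named after their values were seen. Labels number donors, and arrays of the same calf are paired: deviations from group means correlated from 0.11 to 0.41 within donors and from -0.30 to 0.15 between them. Alternatives were the donor block, 3 scalings, 2 low-signal filters (at the 25th percentile and the median), 2 groups alone, trended robust variance, array weights, the low-control arrays left out or as a block, 2 other gene summaries, and each array left out.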

Additional observations from a re-analysis of the deposited data

How the results depend on the processing

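Of 17 calls of members over the 3 comparisons, 12 held in every alternative that tested the gene (OPTC and EPYC were not tested with the filter at the median) and none changed direction; the others were those of FMOD, LUM and EPYC between the MSC groups, OPTC between the day 28 groups and LUM between chondrocytes and day 0 MSCs. Members called in MSC_day28 minus MSC_day0 numbered 8, and from 5 to 7 when arrays were left out in turn, with 5 without the 2 arrays with low hybridisation controls. In chondrocytes_day28 minus MSC_day28 they numbered 2, from 1 to 3 when arrays were left out, and 1 with the filter at the median, which removed OPTC, EPYC and OMD. In chondrocytes_day28 minus MSC_day0 they numbered 7, and 6 to 7 when arrays were left out. With the donor as a paired replicate block the counts were 7, 2 and 7, and the only call that changed was that of FMOD.

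Differences that were not called and changed sign were all close to 0. With centring on the array median, BGN was at -0.0524 and LUM at -0.00209 in chondrocytes_day28 minus MSC_day28, and OGN at -0.0491 in chondrocytes_day28 minus MSC_day0. DCN in the former was at 0.0981 with centring on ribosomal protein genes and at 9.05e-05 with cyclic loess. OGN in the latter was at -0.0704 without the low-control arrays. When arrays were left out in turn, BGN ranged from -0.00395 to 0.0219, DCN from -0.0632 to 0.0421 and LUM from -0.0294 to 0.123 in chondrocytes_day28 minus MSC_day28, and OGN from -0.0704 to 0.234 in chondrocytes_day28 minus MSC_day0. Centring on ribosomal protein genes moved the median of all probe sets from -0.03 to 0.09 and from -0.07 to 0.09 in these 2 comparisons, and centring on the array median moved it to -0.09 and -0.19; there OMD passed between chondrocytes and day 0 MSCs with ribosomal centring (0.77, adjusted p = 0.0437). Over all probe sets, 1506 were called higher and 976 lower in chondrocytes_day28 minus MSC_day28, against 1921 and 678 with ribosomal centring and 1344 and 1359 with median centring. In chondrocytes_day28 minus MSC_day0 these were 3622 and 3823, against 4559 and 2681 and 3110 and 5255. EPYC, OPTC, OMD and the second PRELP set did not exceed percentile 51.7 of an array. BGN, DCN, FMOD and LUM, by their sets of highest mean, lay at percentile 96.2 or above on every array. Whether the scale limited their differences was not tested.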

Other observations

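COL11A1, a chain of the cartilage fibril to which fibromodulin and lumican bind, has 7 probe sets, and its set of highest mean gave the smallest change. That set rose by 1.24 in MSCs and was not called between the day 28 groups (-0.13 ± 0.15). The other 6 rose by 2.10 to 2.74, and 3 of them were called lower in chondrocytes than in day 28 MSCs (-0.87, -0.84 and -0.85, adjusted p = 0.0265, 0.0346 and 0.0451). These sets were looked at after the values of the list had been seen.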
